A study of Mus musculus with 6 samples.

Results

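C-type natriuretic peptide, its receptors, the cGMP kinases and phosphodiesterase downstream of them, and the connexins that couple follicle cells were examined as 9 genes among the 18194 genes named on the arrays. The genes were chosen by their annotated symbols, and 22 of the 45101 probe sets named 1 of them and no other gene. Of the 9, 3 encode the peptide and its receptors (Nppc, Npr2, Npr3), 3 encode cGMP kinases or a cGMP phosphodiesterase (Prkg1, Prkg2, Pde5a) and 3 encode connexins (Gja1, Gja4, Gjc1). The knockout (KO) mice were ERK1 knockout throughout and, for ERK2, fl/fl;Cyp19CRE, with Cre driven by the aromatase (Cyp19) promoter that granulosa cells use. The controls were wild type (WT), and mice of both genotypes were 23 days old. Both genotypes were primed with eCG (equine chorionic gonadotropin, 5 IU, 48 h), which makes follicles grow. Granulosa cells were then collected before hCG (human chorionic gonadotropin, 5 IU), called 0 h here, and at 2.5 h and 4 h of hCG. Each genotype and time had 1 array and no replicate, and the labels do not say how many animals gave the RNA of an array.

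As background, mural granulosa cells make the peptide encoded by Nppc, and the guanylyl cyclase encoded by Npr2 answers it by making cGMP. The cGMP passes through gap junctions into the oocyte, where it keeps the phosphodiesterase PDE3A from breaking down cAMP, and so holds meiosis in prophase. Luteinizing hormone lowers follicular cGMP, and it closes gap junctions of the follicle through MAP kinase phosphorylation of connexin 43, the product of Gja1. hCG stands in for luteinizing hormone here, and the MAP kinases deleted in KO are ERK1 and ERK2.

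Values are normalised array intensities. An intensity of 64 (log2 of 6) was used as a floor, and 11153 genes had a mean log2 at or above it. Of the 9 genes, 8 did, and Prkg1 did not. A gene is called different between a pair of arrays when the intensities differ at least 2-fold and the brighter one reaches 64. Such calls have no replicate error and no p-value. Levels of different genes cannot be ranked, because each probe set has its own brightness. Granulosa markers were present, as 12 of a list of 14 were measured, and each of these lay between 115 and 34790 on all 6 arrays. Probe sets for the targeted kinases were not analysed here. In a bulk sample fewer cells of a type and less RNA per cell cannot be told apart.

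Of the 8 genes over the floor, 4 met the rule of size in at least 1 of 9 comparisons of array pairs: Nppc, Npr3, Prkg2 and Gja4. Between KO and WT the rule was met by 1 of 8 at 0 h (Nppc, lower), against 1.53% of the 11153 genes. At 2.5 h it was met by 1 (Prkg2, lower), against 4.20%. At 4 h it was met by 3 (Npr3 and Prkg2 lower, Nppc higher), against 8.52%. In KO 1 gene met it at 2.5 h against 0 h (Npr3, higher; 6.92% of all genes), 2 at 4 h against 0 h (Npr3 higher, Gja4 lower; 8.44%) and 0 at 4 h against 2.5 h (0.906%). In WT 2 met it at 2.5 h against 0 h (Npr3 and Prkg2, higher; 4.30%), 3 at 4 h against 0 h (the same genes higher, Nppc lower; 14.0%) and 2 at 4 h against 2.5 h (Prkg2 higher, Nppc lower; 3.05%). Both calls of Prkg2 at 2.5 h set a WT value of 110 against 41, which is under the floor. Against the floor itself that WT value was 1.72-fold higher, short of the rule. With 8 genes, a single call outweighs the background share, and the genes are described 1 by 1. The median log2 difference of the 8, beside that of all genes, was 0.26 and 0.20 for KO against WT at 4 h and -0.04 and 0.14 at 2.5 h. After hCG it was 0.21 beside 0.02 in KO at 4 h, -0.42 beside -0.22 in WT at 2.5 h and -0.33 beside -0.21 in WT at 4 h. Npr3 and Prkg2 were over the mean floor through the arrays where they were bright, so these counts and medians describe the 8 and support nothing further.

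**Figure D1:**
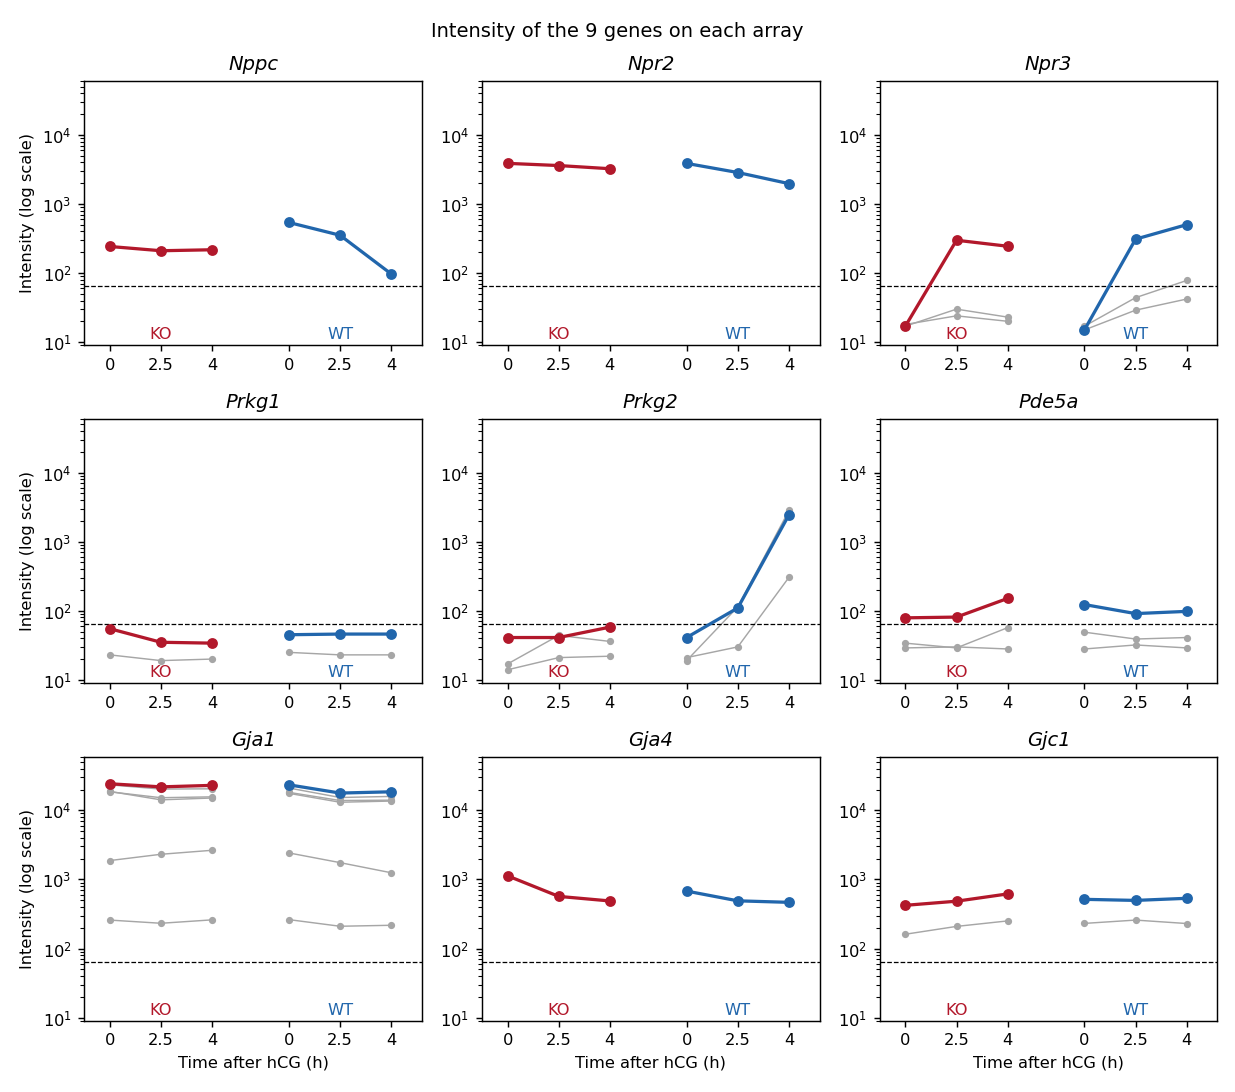
Each panel shows 1 gene, with intensity on a log axis against time after hCG (h), KO arrays on the left in red and WT arrays on the right in blue. Coloured lines are the brightest probe set of the gene, grey lines its other probe sets, each point is 1 array and the dashed line is the floor of 64. Prkg2 reached 2449 on the WT array at 4 h and stayed under 64 on all KO arrays, and Nppc lay lowest on the WT array at 4 h.

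Nppc, which encodes the precursor of C-type natriuretic peptide, had intensities of 242, 210 and 217 on the KO arrays at 0 h, 2.5 h and 4 h. On the WT arrays it had 539, 352 and 97. The KO arrays were nearly level, and the WT arrays stepped down to the lowest value of the 6. Relative to 0 h, the log2 difference at 4 h was -0.16 in KO and -2.47 in WT, where Nppc was 5.56-fold lower. It ranked 26 from the lowest of 11153 genes in that comparison. Most of the WT decrease lay between 2.5 h and 4 h, a 3.63-fold step that ranked 23 from the lowest.

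The genotypes crossed in Nppc. KO was 2.23-fold lower than WT at 0 h and 1.68-fold lower at 2.5 h, and it was 2.24-fold higher at 4 h. The log2 difference at 4 h, 1.16 as deposited, was 0.97 relative to the median of all genes and 0.95 with an offset of 32, both just under the rule of size. With the KO array at 0 h in place of the WT one, the WT difference of Nppc was -1.32 at 4 h and 0.54 at 2.5 h. The genotype difference over the 3 times was therefore small beside its error (log2 -0.25, SE 0.43; adjusted p = 0.758, limma on all 6 arrays). In that test 4 of 11153 genes passed (0.0359%), 1 higher (0.00897%) and 3 lower (0.0269%), 1940 had an unadjusted p under 0.05, and none of the 8 members was among either. Without the 4 h arrays, where its sign was reversed, the Nppc genotype difference was -0.95 (adjusted p = 0.0204). That fit is 1 of the 3 that each left out a time. It rests on fewer arrays, and many more genes passed it than the main fit, as counted in the last section. The interaction of genotype and hCG was 1.36 (SE 1.05; adjusted p = 0.648), and 0 of the 11153 genes passed that limma test (0%), while 1015 had an unadjusted p under 0.05. With 1 array per genotype and time, the residuals of these fits mix any spread between animals with differences between times or genotypes. The interaction fit took the 2.5 h and 4 h arrays of a genotype together, so the WT step between them counted as error. It cannot show that the genotypes responded alike.

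Npr2, the guanylyl cyclase receptor of the peptide, had 3862, 3590 and 3230 on the KO arrays at 0 h, 2.5 h and 4 h. On the WT arrays it had 3856, 2846 and 1965. The genotypes were alike at 0 h, and every later WT value lay below every KO value. At 4 h Npr2 was 1.20-fold lower than at 0 h in KO and 1.96-fold lower in WT, just under the rule of size. The WT arrays as a whole also lay lower after hCG, with a median log2 difference of -0.22 at 2.5 h and -0.21 at 4 h for all genes over the floor. Relative to that median the WT difference of Npr2 at 4 h was -0.77. With cyclic loess, which moved the median to about 0 (-0.05), it was -0.79. The hCG response over both genotypes was -0.44 (SE 0.19; adjusted p = 0.172, limma).

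Markers of granulosa cells were lower in WT after hCG too. In WT at 4 h 12 of 12 lay below 0 h and 6 met the rule of size (14.0% of all genes did, and their median was -0.21), with a median log2 difference of -1.05 and a range of -3.10 to -0.15. In KO at 4 h, 4 of 12 lay below 0 h and 0 by 2-fold, with a median of 0.15. The summed intensity of the list was 128861, 156783 and 152188 on the KO arrays by time and 135736, 103222 and 79573 on the WT arrays. Nppc and Npr2 lay within the WT range at 4 h. None of the 12 passed a limma test. Of the mural-enriched markers (Lhcgr, Cyp11a1, Cd34), 2 of 3 were measured, Cyp11a1 and Cd34. Their summed intensities were 3119, 10366 and 13883 in KO and 7756, 12813 and 14721 in WT. At 4 h against 0 h their median log2 difference was 1.61 in KO and 0.80 in WT, and that of Cd34 alone 0.90 and 0.64. Such sums cannot tell cell numbers from RNA per cell. The 2 measured of 3 cumulus-enriched markers summed to 1424, 871 and 888 in KO and 1502, 1043 and 865 in WT. The part of this wider shift in the Nppc and Npr2 values was not tested.

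**Figure D2:**
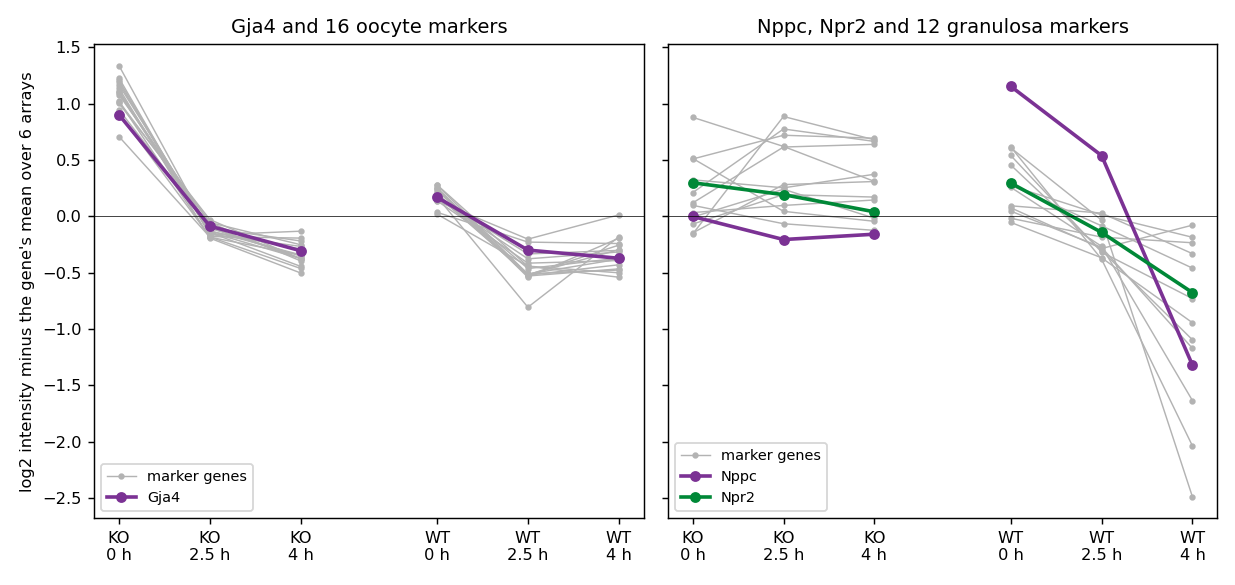
Each line is 1 gene, drawn as log2 intensity minus its mean over the 6 arrays, with KO arrays on the left and WT arrays on the right of each panel and times in h. On the left, Gja4 (purple) runs with 16 oocyte markers (grey), which are highest on the KO array at 0 h. On the right, Nppc (purple) and Npr2 (green) stand beside 12 granulosa markers (grey), all lower in WT at 4 h than at 0 h.

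Npr3, the clearance receptor that takes up natriuretic peptides and has no cyclase of its own, was dim before hCG and bright after it. It had 17, 298 and 244 on the KO arrays at 0 h, 2.5 h and 4 h. On the WT arrays it had 15, 309 and 501. Both 0 h arrays were under the floor and all 4 arrays after hCG were over it. Over both genotypes Npr3 rose by 4.35 on the log2 scale (SE 0.27; adjusted p = 0.00396, limma), higher than 0 h on 4 of 4 arrays. It entered the test only because it was bright after hCG, and the size is measured against 0 h values under the floor. In that test 10.2% of all genes passed (3.44% rose and 6.73% fell), and of the members Npr3 and Gja4 did. Against the floor in place of the dim 0 h values, Npr3 at its brightest after hCG was at least 4.66-fold higher in KO (2.5 h) and at least 7.83-fold higher in WT (4 h).

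At 2.5 h the genotypes were close in Npr3 (KO 1.04-fold lower). At 4 h KO was 2.05-fold lower than WT, because the KO value lay below that at 2.5 h and the WT value above it. The other probe sets of Npr3 were dim. In one (1450286_at) KO had 17, 30 and 23 by time and WT had 17, 44 and 78, so that WT at 4 h was the only array over the floor, by 1.22-fold. The last (1448024_at) stayed under 64 on every array, with 42 as its highest value. No fold between genotypes is given for these 2 probe sets. The interaction term was -0.73 (SE 0.47; adjusted p = 0.601, limma).

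The promoters of Nppc and Npr3 are shown because these genes differed in opposite directions after hCG in WT. Each sequence runs 5′ to 3′ from 250 bases before to 50 bases after an annotated start (RefSeq, GRCm38.p6), and capitals mark matches to 8 short motifs.
Nppc: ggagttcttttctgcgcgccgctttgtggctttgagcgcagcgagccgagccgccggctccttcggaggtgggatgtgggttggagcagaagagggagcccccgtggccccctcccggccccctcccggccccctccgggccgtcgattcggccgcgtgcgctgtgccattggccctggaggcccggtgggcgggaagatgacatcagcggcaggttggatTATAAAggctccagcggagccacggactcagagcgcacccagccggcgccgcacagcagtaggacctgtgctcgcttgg
Npr3: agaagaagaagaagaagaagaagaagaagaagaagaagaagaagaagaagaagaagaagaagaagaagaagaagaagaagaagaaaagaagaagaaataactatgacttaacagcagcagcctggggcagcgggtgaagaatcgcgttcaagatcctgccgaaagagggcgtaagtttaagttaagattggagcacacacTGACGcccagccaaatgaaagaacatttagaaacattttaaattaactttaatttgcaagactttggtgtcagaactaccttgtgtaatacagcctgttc
Nppc lies at chr1:86666293-86670573 and its window at chr1:86670524-86670823, minus strand. Npr3 lies at chr15:11839896-11907837 and its window at chr15:11907322-11907621, minus strand, where a long run of repeated gaa opens it. The start used for Npr3 lies 466 bases inside the 5′ end of the gene, while that of Nppc is the 5′ end itself. Motifs were searched on both strands. The cAMP response element was searched as TGACGTCA (1.79% of 32851 windows of all genes hold it) and by its shorter part TGACG, which overlaps it. AP-1 was searched as TGANTCA. The EGR motif was GCGNGGGCG (5.55% of windows). The C/EBP motif was TTGCNNAA (10.8% of windows). The ETS motif was CCGGAA, the RUNX motif was TGTGGT (16.8% of windows), and the TATA box was TATAAA. The Nppc window is 69.3% G and C and held TATAAA alone, from -29 to -24. Of all windows, 13.6% hold that motif. The Npr3 window is 39.0% G and C and held TGACG alone, from -50 to -46, as 20.8% of all windows do. A match of letters is no evidence that a factor binds there.

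Prkg2, cGMP-dependent protein kinase II, separated the genotypes more than any other of these genes. Its brightest probe set had 41, 41 and 58 on the KO arrays at 0 h, 2.5 h and 4 h. On the WT arrays it had 41, 110 and 2449. All KO values and the WT value at 0 h were under the floor, so the gene was over it on 2 WT arrays alone. Between 2.5 h and 4 h in WT it was 22.3-fold higher, rank 1 of the 11153 genes in that comparison. Against the floor in place of the KO value, KO at 4 h was at least 38.3-fold lower than WT. Prkg2 was over the mean floor through the WT array at 4 h.

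The other probe sets of Prkg2 followed. In the second (1435162_at) KO had 17, 44 and 36 and WT had 19, 114 and 2830. In the third (1421354_at) KO had 14, 21 and 22 and WT had 21, 30 and 305. Against the floor, KO was at least 44.2-fold lower than WT at 4 h in the second and at least 4.77-fold lower in the third. At 2.5 h KO was at least 1.72-fold lower in the brightest and at least 1.78-fold lower in the second, and the third was under the floor on both arrays.

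No limma test passed for Prkg2. A value that stands out on 1 of 6 arrays enters the residual of each fit, and the genotype difference was -2.27 with an SE of 0.94 (adjusted p = 0.29). The hCG response was 1.96 (SE 0.999; adjusted p = 0.247) and the interaction -3.41 (SE 2.49; adjusted p = 0.636).

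Prkg1, the cGMP-dependent kinase I best known from smooth muscle, was under the floor on every array. Its brightest probe set had 55, 35 and 34 on the KO arrays by time and 45, 46 and 46 on the WT arrays. The other (1449876_at) had 23, 19 and 20 in KO and 25, 23 and 23 in WT. These values do not separate its transcript from background. All of 10 smooth muscle and pericyte markers were measured and 7 were over the floor, with summed intensities of 4731, 3602 and 4479 in KO and 5691, 4806 and 4388 in WT. Most of that sum was Acta2 (smooth muscle actin, 3867, 2861 and 3619 in KO, 4661, 3481 and 3325 in WT), while the contractile marker Myh11 had 73, 44 and 35 in KO and 47, 46 and 34 in WT.

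Pde5a, a phosphodiesterase that breaks down cGMP, was weakly measured. Its brightest probe set (1458341_x_at) had 79, 81 and 151 on the KO arrays by time and 123, 91 and 98 on the WT arrays. The suffix x_at marks probe sets whose probes can also match other transcripts. KO was 1.56-fold lower than WT at 0 h and 1.54-fold higher at 4 h, and the interaction was 0.87 (SE 0.54; adjusted p = 0.59, limma). The other 2 probe sets stayed under 64. One (1455970_at) had 34, 29 and 57 in KO and 49, 39 and 41 in WT, and no fold between genotypes is given for values this dim. The third (1460118_at) lay between 28 and 32 throughout.

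**Figure D3:**
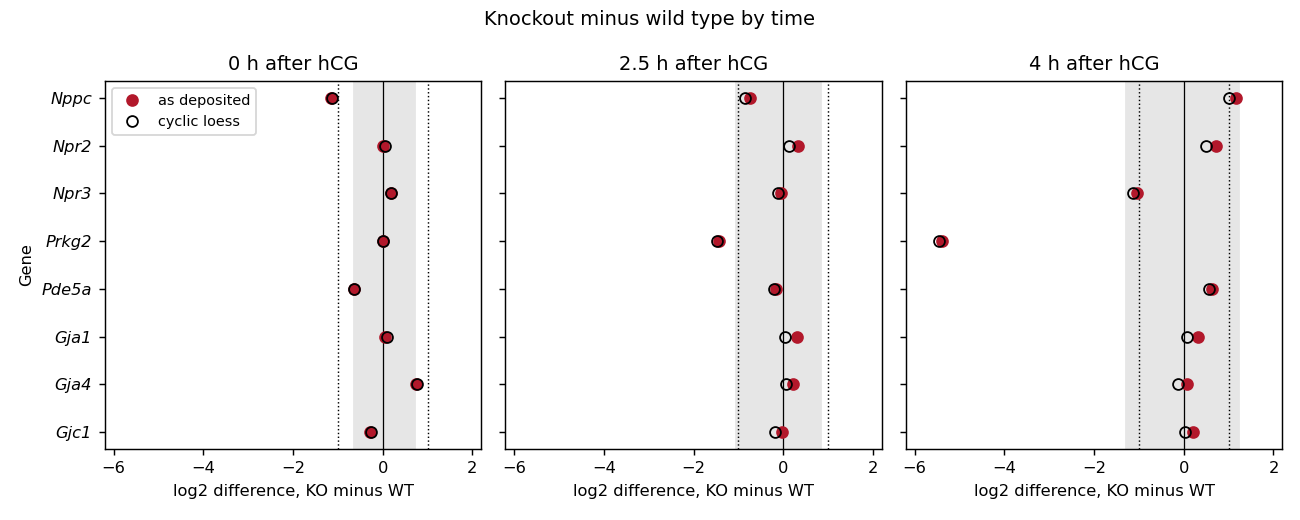
The log2 difference between KO and WT is given for the 8 genes over the floor, with 1 panel per time after hCG (h). Filled red points are values as deposited, open points those after cyclic loess, dotted lines mark 2-fold and the grey band holds the central 95% of the 11153 genes. Prkg2 stands at -5.40 at 4 h, measured against a KO value under the floor, and Nppc moves from -1.16 at 0 h to 1.16 at 4 h.

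Gja1, which encodes connexin 43, the main connexin between granulosa cells, had 24231, 21851 and 22969 on the KO arrays at 0 h, 2.5 h and 4 h by its brightest probe set. On the WT arrays it had 23379, 17771 and 18539. It was abundant on every array, and the WT values after hCG were the lowest. The WT difference at 4 h was -0.34 (log2), and relative to the median of all genes -0.13. The hCG response was -0.24 (SE 0.14; adjusted p = 0.319) and the genotype difference 0.22 (SE 0.14; adjusted p = 0.411, limma). The known action of MAP kinase on connexin 43 is phosphorylation, which these arrays do not measure.

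Of 6 Gja1 probe sets, 5 agreed in size. Their KO minus WT differences at 4 h lay between 0.15 and 0.37 (log2). The sixth (1415801_at) had 1875, 2312 and 2641 in KO by time and 2418, 1750 and 1249 in WT. It was higher after hCG on both KO arrays and lower on both WT arrays, and KO at 4 h was 2.11-fold higher than WT. Of the other 5 probe sets, 4 carry the suffix x_at, which the manufacturer gives to probe sets whose probes can also match other transcripts.

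Gja4, which encodes connexin 37, the connexin that the oocyte makes for its junctions with granulosa cells, had 1127, 568 and 488 on the KO arrays at 0 h, 2.5 h and 4 h. On the WT arrays it had 678, 490 and 466. The KO array at 0 h stood apart from the other 5, which lay close together. KO was 1.66-fold higher than WT at 0 h. At 4 h it was 1.05-fold higher as deposited, and the sign turned with cyclic loess (log2 0.07 against -0.13). Over both genotypes Gja4 fell by 0.80 on the log2 scale after hCG (SE 0.18; adjusted p = 0.0475, limma), lower than 0 h on 4 of 4 arrays. Without the KO 0 h array the fall was 0.51 and the adjusted p 0.125, and with cyclic loess it was 0.71 with an adjusted p of 0.103. The interaction was -0.59 (SE 0.25; adjusted p = 0.546).

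Oocyte transcripts moved the same way on the same arrays. All of 18 markers were measured and 16 were over the floor. Their summed intensity was 43371, 18847 and 16460 on the KO arrays by time and 23683, 14853 and 15734 on the WT arrays. In KO at 4 h against 0 h the markers had a median of -1.39 (log2, range -1.71 to -1.10) beside -1.21 for Gja4. In KO against WT at 0 h their median was 0.90 (0.57 to 1.21) beside 0.73. The hCG test called 10 of the 16 lower and 0 higher, against 6.73% and 3.44% of all genes. The part of oocyte RNA in the Gja4 values was not tested.
Gja4: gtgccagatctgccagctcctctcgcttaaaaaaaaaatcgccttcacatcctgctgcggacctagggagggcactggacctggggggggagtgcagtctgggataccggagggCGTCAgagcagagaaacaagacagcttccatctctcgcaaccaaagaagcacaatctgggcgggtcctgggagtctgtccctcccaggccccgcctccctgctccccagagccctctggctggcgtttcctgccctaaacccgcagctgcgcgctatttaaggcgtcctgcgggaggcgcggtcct
The window of Gja4 (chr4:127313990-127314289, minus strand, around the start of the gene at chr4:127311420-127314039) is shown because Gja4 was the connexin called after hCG. It is 62.0% G and C and held the TGACG motif on the opposite strand from -136 to -132, in capitals, and none of the others. The windows of Npr2, Pde5a, Gja1 and Prkg1 were searched as well. That of Gja1 held the AP-1 motif from -19 to -13 (7.81% of all windows hold it) and TGACG on either strand, from -201 to -197 and from -159 to -155. That of Pde5a held the ETS motif from -185 to -180 (14.9% of all windows), and those of Npr2 and Prkg1, whose starts lie inside the 5′ end of the gene, held none of the 8.

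Gjc1, connexin 45, had 422, 484 and 617 on the KO arrays by time and 515, 497 and 533 on the WT arrays. The KO array at 0 h was lowest and that at 4 h highest. The hCG response was 0.19 (SE 0.16; adjusted p = 0.484) and the genotype difference -0.04 (SE 0.15; adjusted p = 0.898, limma). The second probe set (1447787_x_at) had 161, 209 and 251 in KO and 231, 258 and 230 in WT, with the same order in KO.

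**Figure D4:**
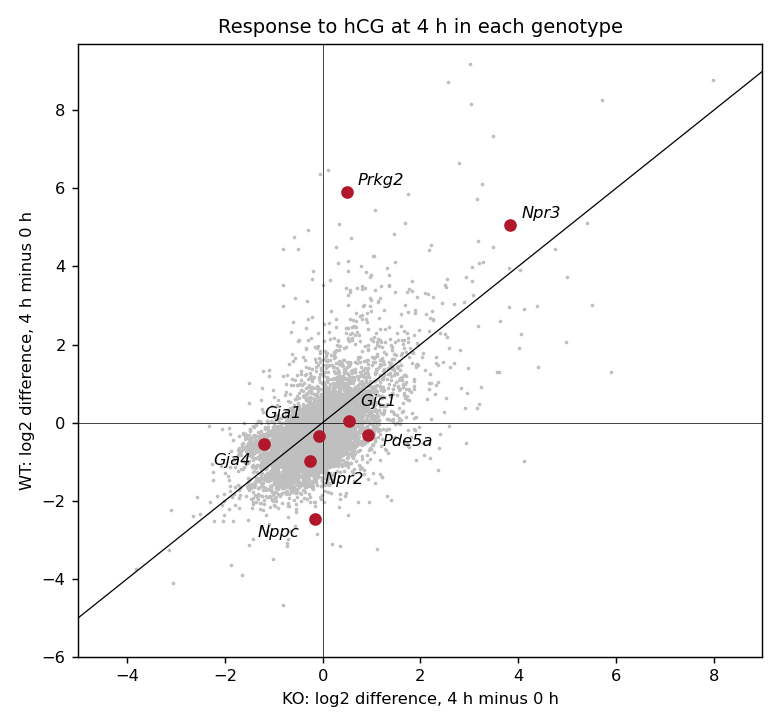
Each grey point is 1 of 11153 genes, with the log2 difference between 4 h and 0 h in KO on the x axis and in WT on the y axis, and the line marks equal responses. The 8 genes over the floor are in red. Npr3 and Prkg2 are drawn against 0 h values under the floor. Npr3 lies far out in both genotypes (3.84 in KO, 5.06 in WT), Prkg2 in WT alone (0.50, 5.90) and Nppc below the line (-0.16, -2.47).

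Other genes of the peptide system were read from a list of 7, of which 6 were measured and 3 were over the floor. Corin, a protease that processes natriuretic peptide precursors, had 129, 525 and 1537 on the KO arrays by time and 137, 222 and 334 on the WT arrays. It rose after hCG (log2 1.90; adjusted p = 0.0463, limma), and KO was 2.36-fold higher than WT at 2.5 h and 4.60-fold at 4 h. Mme (neprilysin), which degrades the peptides, had 227, 232 and 208 in KO and 179, 112 and 80 in WT, 2.60-fold higher in KO at 4 h. The third gene over the floor went the other way, lower in KO than in WT at 2.5 h and 4 h, by less than 2-fold. The ligands Nppa and Nppb stayed between 17 and 41 on every array. Npr1, the receptor of those ligands, was under the floor except in WT at 4 h, with 22, 23 and 20 in KO and 21, 52 and 106 in WT.

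Genes that make, break down or answer cGMP were read from further lists, in which single genes were called, against 3.44% of all genes that rose and 6.73% that fell in the hCG test. Of 9 cGMP-forming enzymes measured, 4 were over the floor and 0 passed the hCG or genotype test. Of the 4, 1 met the rule of size, between genotypes at 2.5 h, where 4.20% of all genes did. This was the nitric oxide synthase Nos3, lower in KO, with 63, 56 and 69 in KO by time and 74, 133 and 102 in WT. Its KO value at 2.5 h was under the floor. Nos3 is the endothelial form, and at 2.5 h 6 of 6 endothelial markers over the floor were lower in KO than in WT. By the rule of size 2 of them were, against 4.20% of all genes. Their median log2 difference was -0.80, beside 0.14 for all genes. The part of endothelial cells in the Nos3 values was not tested. Of 14 other phosphodiesterases that act on cGMP, 5 were over the floor and 1 rose, Pde10a, with 198, 397 and 499 in KO and 197, 435 and 515 in WT (adjusted p = 0.0121, limma). Pde3a, whose product is the oocyte enzyme that cGMP inhibits, lay between 25 and 28 on every array. Among 8 cGMP effectors over the floor 1 rose, Vasp, a kinase substrate that binds actin, with 420, 722 and 818 in KO and 499, 815 and 805 in WT (adjusted p = 0.0317). None of 10 phosphoprotein phosphatases, a family whose members remove phosphate from NPR2, passed a limma test or met the rule of size.

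Besides the 3 members, 14 connexin and pannexin genes were measured, and Panx1 alone was over the floor, at 485, 392 and 394 in KO by time and 546, 497 and 621 in WT. The other 13 lay between 10 and 79. Of 13 gap junction partners over the floor, 1 rose and 1 fell after hCG in the limma test, close to the shares over all genes (3.44% and 6.73%). Ezr (ezrin), which ties membranes to actin, had 877, 2989 and 2938 in KO and 777, 3077 and 3233 in WT (adjusted p = 0.00582). Cnst (consortin), which helps connexins reach the membrane, had 1144, 562 and 616 in KO and 1004, 588 and 483 in WT (adjusted p = 0.0266). Prkca (protein kinase C alpha), a kinase of connexin 43, had 212, 208 and 422 in KO and 258, 384 and 1144 in WT, 2.71-fold lower in KO at 4 h, with no limma test passed (hCG response 0.92, adjusted p = 0.0676). Of 11 guanine nucleotide genes over the floor, 1 rose after hCG, the purine salvage enzyme Pnp (log2 0.70; adjusted p = 0.0362).

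Receptors and factors known to act on Nppc or Npr2 were read from a list of 12, with 10 over the floor. After hCG 2 fell by the limma test, Esr2 and the oocyte factor Gdf9, while 6.73% of all genes fell. Esr2, the estrogen receptor beta of granulosa cells, had 795, 306 and 359 in KO by time and 690, 389 and 280 in WT (adjusted p = 0.0266). Inhbb, an activin subunit, had 20115, 23283 and 22865 in KO and 21559, 13813 and 2518 in WT, and Fshr, the receptor of follicle-stimulating hormone, had 5345, 4468 and 3603 in KO and 4454, 2233 and 708 in WT. KO was higher at 4 h by 9.08-fold and 5.09-fold in these 2 genes, which are also granulosa markers. At 2.5 h the rule of size between genotypes was met by 1 of the 10 higher in KO and 1 lower, against 4.20% of all genes. At 4 h 4 of the 10 met it, all higher in KO, against 8.52% of all genes. Bmp15 and Tgfb2 were not among these. They were the 2 of 10 that met the rule between genotypes at 0 h, higher in KO, against 1.53% of all genes. Bmp15, an oocyte factor, had 482, 173 and 147 in KO and 215, 109 and 168 in WT, and Tgfb2, a transforming growth factor, had 663, 254 and 221 in KO and 325, 187 and 264 in WT. Of 8 genes over the floor for oocyte cAMP and meiotic resumption, 2 fell after hCG by the limma test (6.73% of all genes did). These were Wee2 and Mos, both oocyte transcripts. Mos, Gdf9 and Bmp15 are themselves in the oocyte marker list above, so their values are not separate from it. Cdc25b, a phosphatase that starts meiotic resumption, had 286, 345 and 319 in KO and 265, 168 and 169 in WT, 2.05-fold higher in KO at 2.5 h.

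Genes whose pattern was most like that of a member were listed by Pearson correlation of log2 intensity over the 6 arrays, among 3069 genes with a range of at least 2-fold. With 6 arrays and so many candidates, high values arise for any pattern, and the lists describe these arrays. For Nppc they were Pex10 (r = 0.984), Alg12 (0.983) and Rnd2 (0.969), and Rnd2 had 631, 681 and 630 in KO by time and 1017, 737 and 337 in WT. For Npr3 they were Tpm4 (0.998), Epb41l3 (0.997) and Gramd1b (0.996), with Gramd1b at 912, 4488 and 4274 in KO and 986, 5530 and 7148 in WT. For Prkg2 they were Cadm1 (0.997), Ints3 (0.996) and Sdcbp2 (0.996), of which Cadm1 had 174, 183 and 208 in KO and 182, 226 and 585 in WT, a smaller contrast of the same shape. For Gja4 they were Fbxw27 (r = 0.9998), Nlrp9c (0.9985) and Cpeb1 (0.9975), and Cpeb1, an RNA-binding protein best known from oocytes, had 728, 298 and 247 in KO and 365, 241 and 245 in WT.

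Markers of other cell types were present at differing levels. Endothelial markers (6 of 12 over the floor) summed to 1045, 1170 and 1177 in KO by time and 1182, 1972 and 1526 in WT, with Pecam1 and Tie1 under 64 throughout. Theca markers (3 of 5 measured over the floor) summed to 5594, 15776 and 15952 in KO and 5778, 4310 and 3704 in WT, most of the KO sum after hCG being Cyp17a1. Macrophage and leukocyte markers (9 of 11) summed to 1613, 1940 and 2159 in KO and 1567, 1619 and 1602 in WT. Stromal fibroblast markers (6 of 6) summed to 10910, 8584 and 9950 in KO and 11557, 9287 and 8128 in WT, and surface epithelium markers (7 of 7) to 2820, 3376 and 3672 in KO and 2571, 2466 and 2914 in WT. Their part in the members' values was not tested.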

How the data were processed

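RNA of 6 granulosa cell samples, labelled from 5 ug each, was measured on Affymetrix arrays, per the labels. The authors deposited 1 intensity per probe set and array, made with RMA in the affy package per the submitters' processing notes, whose versions are not given in the sources used here. As deposited, intensities are linear and whole, from 9 to 59425, with array medians of 54 or 55. Their log2 was taken for every test. Quantile normalization hides changes of total RNA per cell, and array data give no read depth, so the number of arrays limits the precision. Of 45101 probe sets, 34958 had 1 gene symbol, 932 several and 9211 none. A gene was represented by its brightest single-gene probe set (mean log2 over arrays).

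Using limma 3.58.1 in R 4.3.3, additive fits of time and genotype over the 6 arrays tested the genotype difference and the hCG response (mean of 2.5 h and 4 h minus 0 h), and a fit of 4 cells tested their interaction. Each left 2 residual degrees of freedom, plus prior degrees of 3.99 (2.97 for the interaction). Benjamini-Hochberg adjustment ran over the 11153 genes at 0.05. The fits were also run on simulated data with independent errors and the same spread for every gene. These arrays need not behave so, and that run checks the code alone.

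Every member is named, its probe sets singly or by their range, and from each list up to 4 genes that met the rule of size by the most. Other list genes (Esr2, Gdf9, Vasp, Pnp, Npr1, Nppa, Nppb, Pde3a, Panx1 and the single markers) were chosen after their values were seen. For members with a range of at least 2-fold the 3 most alike genes are named. Members and lists were chosen with earlier results of these data known. Alternatives were cyclic loess, the mean of all probe sets, an offset of 32, other floors, a trended robust prior, times left out and the other genotype's 0 h array.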

Additional observations from a re-analysis of the deposited data

Results flagged for a closer look

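In 2 of the member probe sets that reached an intensity of 64 on any array, the genotypes moved in opposite directions after hCG. They did so on both later arrays of each genotype. The differences at 4 h were not tested alone. For 1 of the 2, that of Pde5a, the interaction over both later times did not pass (0.87, SE 0.54; adjusted p = 0.59, limma). The Pde5a probe set 1458341_x_at was higher on both KO arrays than at 0 h and lower on both WT arrays, and the KO response at 4 h minus the WT response was 1.26 (log2). The Gja1 probe set 1415801_at did the same with a difference of 1.45, while the other 5 Gja1 probe sets gave 0.05 to 0.28. The Prkg1 probe set 1444232_at, under 64 on every array, was lower on both KO arrays and higher on both WT arrays. Of the 11153 genes over the floor, each by its brightest probe set, 2087 (18.7%) had such opposite responses. Counted the same way, Pde5a alone of the 8 members over the floor had them. The members therefore did not exceed the share over all genes.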

How the results depend on the processing

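No paired analysis was possible because each genotype and time had 1 array and the labels carry no replicate numbers. Of 422 values for single members under the alternatives, 382 kept their direction and side of the rule or threshold, 12 no longer passed, 5 newly passed, and 14 differences between arrays and 9 limma values that had not passed changed sign. Counts of members meeting the rule of size depended on probe sets and floor. With the mean of all probe sets or a floor at log2 7, KO against WT gave 0 at 2.5 h and 1 at 4 h, KO gave 0 at 2.5 h and 1 at 4 h against 0 h, and WT gave 0 at 2.5 h, 1 at 4 h and 1 between 2.5 h and 4 h. An offset of 32 gave 0 and 1 for KO against WT at 2.5 h and 4 h, and 1 for WT at 2.5 h. Against the other genotype's 0 h array KO gave 2 at 2.5 h, and WT gave 3 at 2.5 h and 4 at 4 h.

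The genotype test called 0 genes with cyclic loess, with the mean of probe sets and with no floor, 1 with the offset, 37 with the higher floor and 41 with a trended robust prior. Leaving out 1 time gave 16 to 471 genes (471 without 0 h, 245 without 4 h, 16 without 2.5 h) and 0 to 1 members (Nppc without 4 h). The hCG test called 687 genes with cyclic loess, 701 with the mean of probe sets, 432 with no floor, 736 without 2.5 h, 1462 without 4 h and 269 without the KO 0 h array, an alternative chosen after seeing the data. It called 1 member with cyclic loess, no floor, the higher floor, without 2.5 h or without the KO 0 h array, and 0 with the mean of probe sets, where Npr3 is under the floor. The cause of these changes was not tested, except that a higher floor or a mean over dim probe sets takes Npr3 and Prkg2 out by construction. The limma values that changed sign were the genotype difference of Nppc (-0.95 to 0.21 over the times left out), Npr3 (-0.545 to 0.064), Pde5a (-0.40 to 0.23) and Gjc1 (-0.163 to 0.086), the hCG response of Pde5a (-0.20 to 0.30, and -0.38 without the KO 0 h array) and of Gjc1 (-0.001 without that array), and the interaction of Gja1 (-0.047 with cyclic loess). Dim probe sets limit Prkg1, Pde5a, Npr3 at 0 h, and Prkg2 at 0 h and on every KO array, and ratios to these values rest on background.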
